A study of Mus musculus with 58 samples.

Results

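Interferon-response genes were followed in mRNA pulled down with the ribosomes of mouse adipocytes (brown, beige and white). The members were all rows of the deposited expression table whose symbol matched a set of names: the interferon receptors and signal transducers, the interferon regulatory factors Irf1 to Irf3 and Irf5 to Irf9, the Ifit, Ifitm, Ifi, Isg, Oas and Mx families, the guanylate binding and immunity related GTPases, and single genes such as Bst2, Rsad2 and Usp18. They came to 62 of 11603 rows and to 61 symbols, because Irgm2 had 2 rows. The rule reads names, not measured values. All 62 rows reached 1 CPM (a count scaled to the library's total) in at least 3 libraries, as did every row of the table. The deposited table thus looks already filtered, and genes too low to pass may have no row. Ifi204, Ifit3b, Mx1, Mx2, Oas2 and Zbp1 were below 1 CPM in every brown library and have a row through inguinal libraries alone. Their low brown levels against inguinal ones are partly set by this minimum. The rule also took 4 genes by name alone (Irf2bp1, Irf2bp2, Irf2bpl and Isg20l2), which are counted here and have other known roles.

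Interferons are secreted antiviral and immune signals. Type I interferons bind the receptor chains Ifnar1 and Ifnar2, and interferon gamma binds Ifngr1 and Ifngr2. Janus kinases on both receptors then phosphorylate transcription factors, and Stat2 is one of those of the type I receptor. A complex that holds Stat2 and Irf9 binds the interferon-stimulated response element, the gamma-activated site serves interferon gamma, and the genes turned on through these elements include sensors of foreign nucleic acid, antiviral effectors and further transcription factors. Many cell types keep a low, tonic level of these genes without infection, and adipocytes carry both receptors.

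All mice were C57BL/6J NuTRAP animals, in which cells with a chosen Cre recombinase carry GFP on their ribosomes, and TRAP pulls those ribosomes down with their mRNA through an antibody to GFP. The labels name a Ucp1-NuTRAP line, driven by the promoter of the thermogenic gene Ucp1, and an Adipoq-NuTRAP line, driven by the adipocyte promoter Adipoq, and leave open from which line a given library came. Mice ate standard chow and were housed at 23 °C unless another temperature is given. Cold brown libraries (n = 5) came from interscapular brown fat and cold beige libraries (n = 4) from inguinal white fat after 1 week at 4 °C. Warm brown (n = 5) and warm beige libraries (n = 3) came from the same depots of mice that spent 4 further weeks at 30 °C after the cold week. Warm white libraries (n = 5) were taken from the inguinal depot of animals whose whole life was spent at 30 °C according to the treatment protocol, although the sample descriptions of these libraries carry the word rewarm. The labels call each library a biological replicate without naming animals or stating whether any were pooled, so p-values measure the spread between these libraries. The number of reads in each library is unknown, and the 36 chromatin samples of the series were not used here.

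All 6 adipocyte markers had a row, with a summed level of 6676 to 13069 CPM per library. Markers of other cells were present as well: the 9 macrophage markers with a row, of 12 listed, summed to 8.03 to 13.3 CPM in cold brown, 24.4 to 33.7 in warm brown, 44.8 to 79.2 in cold beige, 139 to 157 in warm beige and 69.2 to 115 in warm white libraries. The 10 endothelial markers summed to 61.9 to 209, 138 to 238, 181 to 391, 578 to 902 and 57.5 to 85.6 CPM in the same order, and the 11 fibroblast and preadipocyte markers to 127 to 241, 554 to 741, 851 to 1205, 2843 to 5586 and 3949 to 5214 CPM. Skeletal muscle markers (5 of 6 with a row) summed to at most 1.78 CPM in every brown library, 12.2 in cold beige, 168 in warm beige and 244 in warm white libraries. No marker row was at the floor in every library, and no marker of T and NK cells (0 of 11), B cells (0 of 4), dendritic cells (0 of 6) or neutrophils (0 of 4) was among the rows. Genes too low for the minimum may have no row, so these cells are not shown to be absent. Cold brown libraries 1 and 5 stood apart from the other 3 of their group, with summed endothelial markers of 209 and 200.2 CPM against 61.9 to 67.0 CPM. The deposited values carried the trace of a removed batch effect that split the libraries into 10 and 12, read from the values alone since the labels name no batch.

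The interferon-response genes were lowest in cold brown adipocytes and highest in warm beige and warm white adipocytes. Each library was summarised by the median over the 62 rows of log2 CPM minus the row's mean over all libraries. This median was -1.46, -2.01, -2.05, -1.99 and -1.43 in the cold brown libraries, 0.01, 0.17, 0.16, 0.07 and -0.01 in warm brown, -0.34, -0.29, -0.14 and 0.06 in cold beige, 1.18, 1.24 and 1.39 in warm beige and 1.10, 1.09, 1.04, 1.20 and 0.70 in warm white. The cold brown libraries lay below all others, the warm brown and cold beige libraries overlapped in the middle, and every warm beige and warm white library lay above those. Cold brown libraries 1 and 5, which had more endothelial marker signal, were also the highest of their group here. By group means, 49 of 62 members (79.0%) were lowest in cold brown, against 34.5% of all rows, and 32 (51.6%) were highest in warm beige and 22 (35.5%) in warm white, against 19.7% and 24.1% of all rows. The members with a row through inguinal libraries alone are among the 49. In bulk pulldowns such as these, fewer cells of a type and less RNA per cell cannot be told apart. The summed macrophage and fibroblast markers had their lowest values in cold brown too, and their part in the interferon-response differences was not tested. The endothelial markers were low in warm white, where the interferon-response genes were high.

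**Figure D1:**
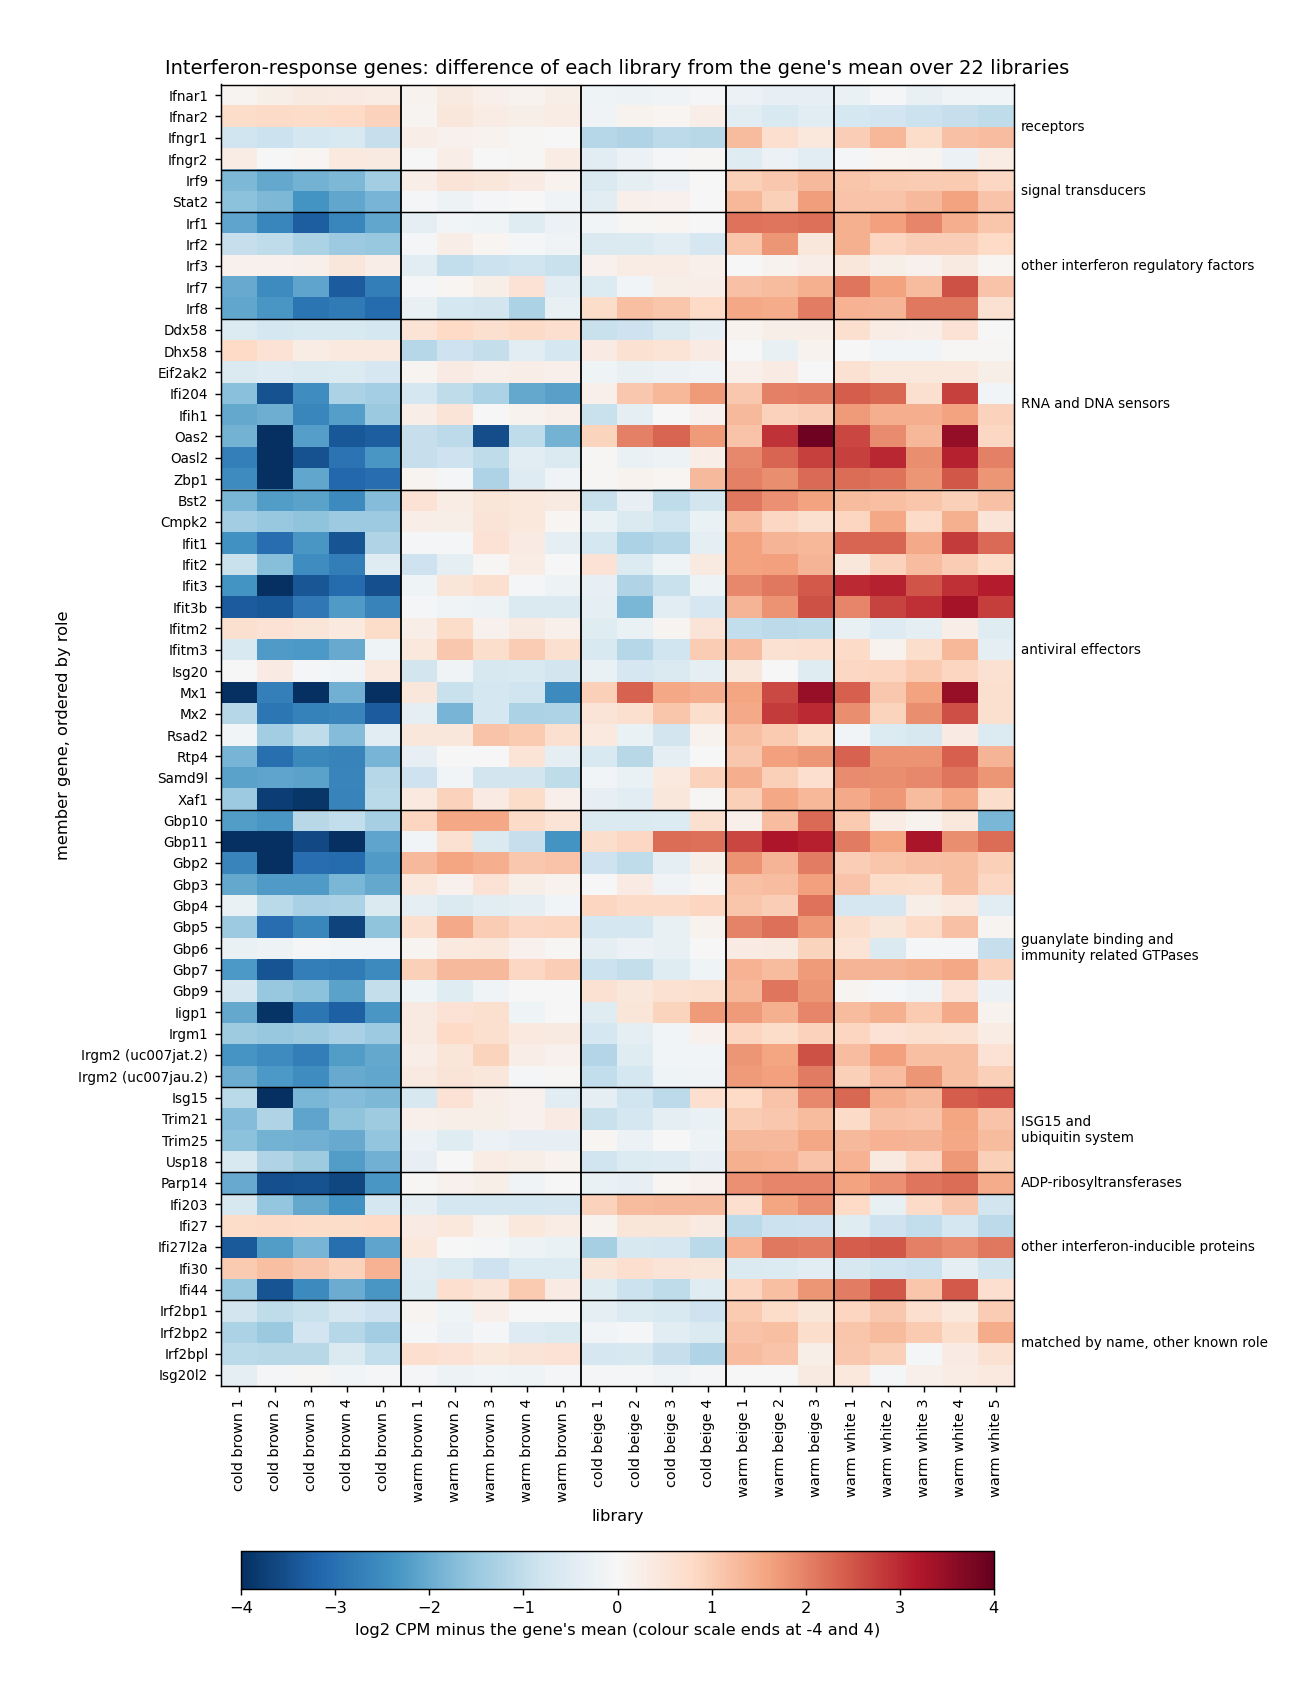
Heat map of 61 of the 62 interferon-response rows (vertical, grouped by role) in 22 libraries (horizontal, grouped by condition); colour gives log2 CPM minus the row's mean over all libraries. Cold brown columns are mostly blue, warm brown and cold beige columns pale, and warm beige and warm white columns mostly red, with Ifnar2, Ifi27 and Ifi30 among the rows running the other way.

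Most of the members were higher in warm than in cold libraries of both depots. Warm mice were taken 4 weeks after the cold week, so warming and the time passed cannot be told apart. No brown or beige library came from mice kept out of the cold. A rise on warming and a return after a fall in the cold therefore cannot be told apart either. The words warming, rose and fell name these differences only. In brown adipocytes, 49 members were higher and 6 lower in warm than in cold libraries, and 7 did not pass (limma, Benjamini-Hochberg adjusted p under 0.05 over all rows). Among all rows 41.2% were called higher and 30.1% lower. The median difference of the members was 1.82 on the log2 scale, against 0.13 over all rows, and 43 members rose and 3 fell at least 2-fold. In beige adipocytes, 45 members were higher, 5 lower and 12 not called, against 36.0% higher and 36.9% lower among all rows, with a median of 1.34 against 0.03. There 39 members rose and 2 fell at least 2-fold. The share of all rows at that cut was not counted in either depot. These 2-fold counts alone therefore do not set the members apart. All warm libraries lay above all cold ones for 44 members in brown and 45 in beige adipocytes (35.3% and 32.9% of all rows), and below them for 6 and 6 (27.6% and 33.5% of all rows). Summed macrophage markers went from at most 13.3 to at least 24.4 CPM in brown and from at most 79.2 to at least 139 CPM in beige libraries over the same comparisons, with 4 and 3 of their 9 rows called higher. Fibroblast markers were called higher for 9 and 7 of 11 rows and endothelial markers for 4 and 8 of 10. Skeletal muscle markers were called higher for 0 of 5 rows in brown and for 5 of 5 in beige adipocytes (median difference 5.90). The part of these cells in the members' rise was not tested.

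Of the rises, 40 of 49 in brown and 39 of 45 in beige adipocytes were called in every rerun on all or all but 1 or 2 libraries, and of the falls 5 of 6 and 4 of 5. In the other comparisons the calls kept were 4 of 6 higher and 4 of 15 lower for the difference between the depots in warming, 6 of 12 and 2 of 5 for warm beige against warm white, 5 of 8 and 40 of 43 for warm brown against warm white, and 32 of 47 and 6 of 8 for cold beige against cold brown. Within the first batch alone 42 members rose and 4 fell in brown and 31 and 3 in beige adipocytes, and within the second 50 and 6, and 44 and 5. Within each batch, every one of the 55 members called in brown kept its sign, and of the 50 called in beige all kept it except Isg20 in the first batch. That batch held 1 warm beige library, so its beige counts assume that this library varies as those of the other groups do. Other scalings moved the median of all rows by more than 0.1 in log2: to 0.28 in brown and 0.18 in beige with every library set to a common total, to 0.26 and 0.25 with totals taken without the 20 most abundant genes, and in brown down to -0.012 under quantile normalization and 0.014 with median-of-ratios scaling. The members' medians then were 1.97 and 1.50 under the common total and 1.94 and 1.56 without the 20 genes, and in brown 1.26 under quantile normalization and 1.70 with median-of-ratios scaling. Adding CPM before taking logs lowered them, to 1.05 and 1.18 with 1 CPM and to 0.60 and 0.79 with 5 CPM. The share of all brown calls that were higher was 57.7% as deposited and ran from 49.8% to 67.6% over the scalings. Without the 20 genes, 60.8% of all calls in beige adipocytes were higher, against 49.4% as deposited.

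The promoter sequences of the members are shown here because the binding sites of the interferon transcription factors are known. Promoter windows of 300 bases, 250 before and 50 after the start of the transcript, were available for 43 of the 61 symbols (RefSeq, GRCm38.p6). Some symbols had several starts, with 51 windows for these 43. The starts used for Ifit3, Ifit3b, Ifitm2 and Gbp3 lay inside the RefSeq span of the gene. Their printed stretches therefore fall wholly or, for Gbp3, partly within the gene and not upstream of it. Windows were searched on both strands for the core of the interferon-stimulated response element (GAAA, any 2 bases, then GAAA) and for the core of the gamma-activated site, TTCNNNGAA, which is its own reverse complement. The response element core was present in 21 of 43 members (48.8%), against 306 of 8620 table genes with a window (3.55%) and 3.44% of all 32851 windows. The gamma-activated site core was present in 14 of 43 members (32.6%), against 8.31% of table genes and 8.30% of all windows. The motifs overlapped each other in Bst2 and Ifitm3. A match is a description of the letters and was not tested as a bound site. The first set shows the whole 250 bases before the start for Isg15, the ubiquitin-like modifier, and for Ifit3 and Gbp2, the members with the largest rises in brown adipocytes. All sequences read 5′ to 3′ along the gene, with response element matches on either strand in capitals.
Isg15 (chr4:156200819-156201068, minus strand): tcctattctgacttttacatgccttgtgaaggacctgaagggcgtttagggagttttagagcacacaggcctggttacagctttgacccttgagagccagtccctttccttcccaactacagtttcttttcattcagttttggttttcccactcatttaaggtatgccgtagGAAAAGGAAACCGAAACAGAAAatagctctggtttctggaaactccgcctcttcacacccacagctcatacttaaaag
Ifit3 (chr19:34583279-34583528, plus strand): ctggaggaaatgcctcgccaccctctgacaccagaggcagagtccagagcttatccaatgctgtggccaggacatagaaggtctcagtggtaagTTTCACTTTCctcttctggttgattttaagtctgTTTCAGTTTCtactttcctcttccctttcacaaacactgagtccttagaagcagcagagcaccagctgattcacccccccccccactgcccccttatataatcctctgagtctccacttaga
Gbp2 (chr3:142620413-142620662, plus strand): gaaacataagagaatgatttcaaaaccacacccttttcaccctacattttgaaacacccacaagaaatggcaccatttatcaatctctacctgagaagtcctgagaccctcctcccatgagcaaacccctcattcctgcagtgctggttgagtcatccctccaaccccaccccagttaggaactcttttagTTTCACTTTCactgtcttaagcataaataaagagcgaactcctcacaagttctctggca

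Isg15 had 3 matches that ran into each other, starting 78 bases before the transcript start, Ifit3 had 2 and Gbp2 had 1, at 59 bases before the start. Shorter stretches of 60 bases follow for other members with a match: guanylate binding and immunity related GTPases, then antiviral effectors, then the transcription factor Stat2. Capitals again mark the response element core on either strand.
Gbp3 (chr3:142559977-142560036, plus strand): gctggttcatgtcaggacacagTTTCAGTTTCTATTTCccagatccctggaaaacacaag
Gbp5 (chr3:142496744-142496803, plus strand): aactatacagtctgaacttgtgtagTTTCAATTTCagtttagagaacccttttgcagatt
Gbp7 (chr3:142530258-142530317, plus strand): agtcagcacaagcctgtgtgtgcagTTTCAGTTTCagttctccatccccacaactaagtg
Irgm1 (chr11:48871421-48871480, minus strand): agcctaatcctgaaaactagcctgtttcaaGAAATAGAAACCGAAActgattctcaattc
Irgm2 (chr11:58214888-58214947, plus strand): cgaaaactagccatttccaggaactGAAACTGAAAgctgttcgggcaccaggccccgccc
Bst2 (chr8:71537565-71537624, minus strand): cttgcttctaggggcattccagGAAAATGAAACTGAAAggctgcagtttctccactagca
Rsad2 (chr12:26456538-26456597, minus strand): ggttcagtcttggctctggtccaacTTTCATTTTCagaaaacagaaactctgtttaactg
Ifit1 (chr19:34640769-34640828, plus strand): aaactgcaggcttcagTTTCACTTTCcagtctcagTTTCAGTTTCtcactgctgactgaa
Ifit3b (chr19:34607761-34607820, plus strand): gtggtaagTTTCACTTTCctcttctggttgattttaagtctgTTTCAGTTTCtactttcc
Ifitm2 (chr7:140955973-140956032, minus strand): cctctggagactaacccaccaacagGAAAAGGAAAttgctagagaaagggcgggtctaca
Stat2 (chr10:128270251-128270310, plus strand): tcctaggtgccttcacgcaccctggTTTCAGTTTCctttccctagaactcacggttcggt

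The Ifit3 and Ifit3b windows shared an unbroken run of 169 bases. Ifit3b is a close copy of Ifit3, and how reads were divided between the pair was not tested, so their separate values are uncertain. Ifitm2 is shown as the only member with the element that fell in either warming comparison. For the gamma-activated site, capitals mark the core in 2 interferon regulatory factors without a response element match.
Irf1 (chr11:53769898-53769957, plus strand): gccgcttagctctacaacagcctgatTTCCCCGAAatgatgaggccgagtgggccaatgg
Irf8 (chr8:120736170-120736229, plus strand): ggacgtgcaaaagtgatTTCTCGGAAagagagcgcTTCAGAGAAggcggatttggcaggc

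Members with a response element match and members without one both rose with warming. Of the 22 rows with a match, 21 rose and 0 fell in brown adipocytes, with a median difference of 2.35, and Ifitm2 was not called. Of the 22 rows with a window and no match, 15 rose and 4 fell, with a median of 1.42, and of the 18 rows with no window 13 rose and 2 fell, with a median of 1.59. In beige adipocytes 19 of the 22 rows with a match rose and 1 fell (median 1.67), against 15 and 2 of 22 without (median 1.33) and 11 and 2 of 18 with no window (median 1.11). The rows with and without the element were not tested against each other.

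**Figure D2:**
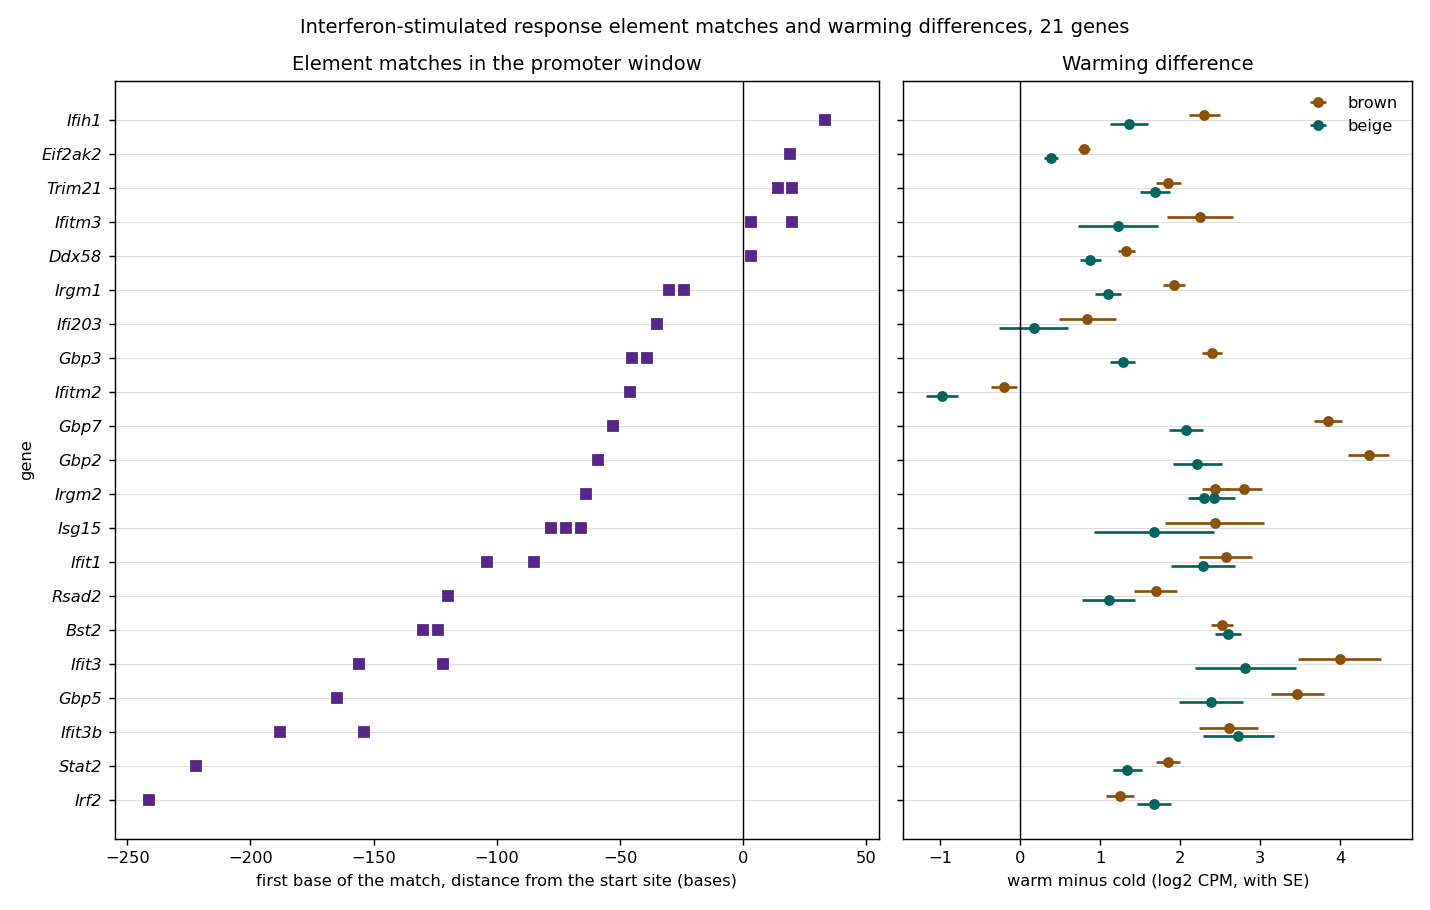
Positions of response element matches (left, bases from the transcript start) in the 21 members that hold one, and their warming differences in log2 CPM with limma standard errors (right; brown and beige adipocytes). Matches begin between 241 bases before the start and 33 bases after it, and 20 of the 21 genes have a positive brown difference.

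Of 4 receptor genes, 1 rose (Ifngr1) and 1 fell (Ifnar2) in both warming comparisons, and Ifnar1 and Ifngr2 were not called in either. Among all rows 41.2% rose and 30.1% fell in brown and 36.0% and 36.9% in beige adipocytes, so these counts do not set the receptors apart. The same shares are the background of every count by role below. Levels are given below as log2 CPM in libraries 1 to n of each group, and differences as log2 differences of group means with limma's standard error. Gene positions are those of RefSeq on GRCm38.p6. Values at or below -5 lie at a floor where they no longer measure a level, which held for 9 of the 1364 member values, in 6 rows. Ifngr1 (chr10:19591949-19610229), the chain that binds interferon gamma, read 6.26, 6.20, 6.35, 6.47 and 6.13 in cold brown and 7.34, 7.25, 7.19, 7.10 and 7.07 in warm brown libraries. It read 5.91, 5.86, 6.02 and 5.95 in cold beige, 8.34, 7.74 and 7.48 in warm beige and 8.05, 8.39, 7.79, 8.23 and 8.30 in warm white libraries. Warm libraries lay above all cold libraries of their depot, and cold beige was the lowest group. The rise was 0.91 ± 0.12 in brown (adjusted p = 7.36e-07) and 1.92 ± 0.15 in beige adipocytes (adjusted p = 8.91e-11).

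Ifnar2 (chr16:91372783-91405589), the signalling chain with high affinity for type I interferons, read 7.30, 7.33, 7.30, 7.36 and 7.48 in cold brown and 6.65, 7.00, 6.85, 6.79 and 6.86 in warm brown libraries. It read 6.42, 6.69, 6.64 and 6.83 in cold beige, 6.09, 5.94 and 6.10 in warm beige and 5.85, 5.78, 5.69, 5.64 and 5.55 in warm white libraries. Its order was the reverse of the module, highest in cold brown and lowest in warm white, with no overlap between warm and cold libraries of a depot. It fell by 0.52 ± 0.08 in brown (adjusted p = 2.45e-06) and by 0.60 ± 0.09 in beige adipocytes (adjusted p = 4.71e-06). Ifnar1 (chr16:91485032-91510523), the other chain of that receptor, read 6.89, 7.02, 7.14, 7.12 and 7.09 in cold brown and 6.93, 7.15, 6.99, 6.93 and 7.02 in warm brown libraries. It read 6.63, 6.60, 6.65 and 6.74 in cold beige, 6.56, 6.45 and 6.45 in warm beige and 6.52, 6.75, 6.49, 6.64 and 6.67 in warm white libraries. Warm and cold brown libraries overlapped, and the beige ones did not by a small margin. The differences were -0.05 ± 0.06 in brown (adjusted p = 0.503) and -0.17 ± 0.08 in beige adipocytes (adjusted p = 0.0506). Ifngr2 (chr16:91547059-91564007), the second interferon gamma chain, read 5.10, 4.78, 4.87, 5.20 and 5.15 in cold brown and 4.79, 5.07, 4.78, 4.86 and 5.08 in warm brown libraries. It read 4.37, 4.57, 4.72 and 4.85 in cold beige, 4.31, 4.56 and 4.38 in warm beige and 4.71, 4.87, 4.90, 4.55 and 5.10 in warm white libraries. The groups overlapped in both depots, with differences of -0.10 ± 0.11 (adjusted p = 0.414) and -0.21 ± 0.14 (adjusted p = 0.165). The sign of the Ifnar1 and Ifngr2 differences depended on the scaling, since both turned positive in each depot with totals taken without the 20 most abundant genes.

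Stat2 and Irf9, transcription factors of type I interferon signalling, rose with warming in both depots. Stat2 (chr10:128270498-128292853), which carries the transactivation domain, read 2.02, 1.87, 1.27, 1.59 and 1.79 in cold brown and 3.58, 3.45, 3.58, 3.67 and 3.50 in warm brown libraries. It read 3.24, 3.85, 3.81 and 3.64 in cold beige, 4.97, 4.61 and 5.33 in warm beige and 4.80, 4.79, 4.95, 5.25 and 4.80 in warm white libraries. There was no overlap between warm and cold libraries of a depot, and the rises were 1.85 ± 0.15 (adjusted p = 3.04e-10) and 1.33 ± 0.18 (adjusted p = 8.78e-07). Irf9 (chr14:55603985-55610030), the DNA-binding subunit, read 1.91, 1.67, 1.82, 1.93 and 2.34 in cold brown and 3.98, 4.25, 4.17, 4.05 and 3.87 in warm brown libraries. It read 3.13, 3.32, 3.48 and 3.74 in cold beige, 4.68, 4.79 and 5.03 in warm beige and 4.83, 4.77, 4.74, 4.78 and 4.56 in warm white libraries. Its 5 cold brown libraries were the lowest of all, and it rose by 2.13 ± 0.13 in brown (adjusted p = 1.65e-12) and 1.42 ± 0.15 in beige adipocytes (adjusted p = 2.42e-08).

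Of the 5 other interferon regulatory factors with a row, 4 rose and 1 (Irf3) fell in brown adipocytes, and 3 rose in beige adipocytes. Irf1 (chr11:53770014-53778374), induced by interferon gamma and shown above with a gamma-activated site core, read 2.53, 2.03, 1.33, 2.01 and 2.56 in cold brown and 4.22, 4.52, 4.44, 4.13 and 4.39 in warm brown libraries. It read 4.51, 4.67, 4.69 and 4.64 in cold beige, 6.79, 6.76 and 6.84 in warm beige and 6.04, 6.27, 6.58, 6.07 and 5.73 in warm white libraries. The warm beige libraries were the highest of all groups, and the rises were 2.25 ± 0.17 (brown, adjusted p = 1.25e-10) and 2.17 ± 0.21 (beige, adjusted p = 4.13e-09). Irf7 (chr7:141263183-141266499), the factor that amplifies type I interferon production, read 0.04, -0.45, -0.03, -1.27 and -0.71 in cold brown and 1.99, 2.16, 2.30, 2.66 and 1.65 in warm brown libraries. It read 1.52, 1.95, 2.31 and 2.35 in cold beige, 3.23, 3.33 and 3.48 in warm beige and 4.20, 3.67, 3.33, 4.62 and 3.21 in warm white libraries. Warm and cold libraries did not overlap in either depot, and it rose by 2.64 ± 0.28 (adjusted p = 1.72e-08) and 1.31 ± 0.33 (adjusted p = 0.00133). Irf8 (chr8:120736358-120756694), best known from macrophages and dendritic cells, read -1.12, -1.36, -1.96, -1.86 and -2.13 in cold brown and 0.65, 0.26, 0.21, -0.31 and 0.65 in warm brown libraries. It read 1.70, 2.16, 2.07 and 1.75 in cold beige, 2.50, 2.45 and 3.00 in warm beige and 2.35, 2.32, 3.05, 3.08 and 1.56 in warm white libraries. Cold beige libraries already lay above every warm brown one. The rise was 1.98 ± 0.29 in brown adipocytes (adjusted p = 2.29e-06, lost with 5 CPM added to every value), and the beige difference of 0.73 ± 0.35 did not pass (adjusted p = 0.064).

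Irf3 (chr7:44997648-45002848), a factor activated by phosphorylation downstream of nucleic acid sensing and not itself a typical interferon-induced gene, read 5.06, 5.06, 5.09, 5.34 and 5.15 in cold brown and 4.43, 3.91, 4.04, 4.08 and 4.01 in warm brown libraries. It read 5.05, 5.19, 5.19 and 5.10 in cold beige, 4.87, 5.02 and 5.16 in warm beige and 5.35, 5.13, 5.07, 5.26 and 4.96 in warm white libraries. Warm brown alone was low, and the other 4 groups lay between 4.87 and 5.35. The fall in brown adipocytes was -1.05 ± 0.09 (adjusted p = 1.66e-09), and the beige difference was -0.12 ± 0.11 (adjusted p = 0.368). Irf2 (chr8:46739745-46847458), an antagonist of Irf1 at shared sites, rose in both depots, by 1.25 ± 0.18 (adjusted p = 1.39e-06) and 1.67 ± 0.21 (adjusted p = 2.96e-07).

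Among 8 sensors of RNA and DNA with a row, 6 rose and 1 fell in brown adipocytes, and 5 rose and 1 fell in beige adipocytes. The RIG-I-like RNA helicases parted: Ddx58 (RIG-I) and Ifih1 (MDA5) rose, and Dhx58 (LGP2), the regulatory helicase without a signalling domain, fell. Ifih1 (chr2:62595618-62646255) read 1.88, 1.97, 1.32, 1.72 and 2.44 in cold brown and 4.19, 4.45, 3.95, 4.07 and 4.15 in warm brown libraries. It read 3.04, 3.54, 3.92 and 4.11 in cold beige, 5.23, 4.87 and 4.93 in warm beige and 5.63, 5.40, 5.38, 5.56 and 4.87 in warm white libraries. Cold brown libraries were the lowest and did not overlap with any group, and the rises were 2.30 ± 0.20 (adjusted p = 5.82e-10) and 1.36 ± 0.24 (adjusted p = 2.22e-05). Ddx58 (chr4:40203777-40239825) read 4.31, 4.15, 4.24, 4.24 and 4.16 in cold brown and 5.41, 5.65, 5.49, 5.63 and 5.54 in warm brown libraries. It read 3.97, 4.03, 4.30 and 4.52 in cold beige, 5.00, 5.11 and 5.13 in warm beige and 5.52, 5.17, 5.14, 5.44 and 4.86 in warm white libraries. Cold brown and cold beige libraries overlapped and lay below all warm ones, with rises of 1.32 ± 0.11 (adjusted p = 4.18e-10) and 0.88 ± 0.13 (adjusted p = 3.99e-06). Dhx58 (chr11:100694884-100704271) read 4.17, 3.94, 3.67, 3.75 and 3.76 in cold brown and 2.22, 2.53, 2.42, 2.96 and 2.68 in warm brown libraries. It read 3.71, 3.97, 3.92 and 3.71 in cold beige, 3.39, 3.06 and 3.52 in warm beige and 3.38, 3.25, 3.27, 3.40 and 3.43 in warm white libraries. Warm brown libraries were below all others, and it fell by 1.30 ± 0.13 in brown (adjusted p = 1.01e-08) and by 0.50 ± 0.16 in beige adipocytes (adjusted p = 0.00714). The beige call was lost without warm beige library 2 and when libraries were set to a common total or to totals without the 20 most abundant genes (adjusted p 0.0609 to 0.129).

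Eif2ak2 (chr17:78850504-78882572), the RNA-activated kinase PKR that halts translation, read 4.53, 4.57, 4.51, 4.55 and 4.44 in cold brown and 5.20, 5.43, 5.29, 5.37 and 5.30 in warm brown libraries. It read 4.92, 4.81, 4.87 and 4.97 in cold beige, 5.29, 5.44 and 5.10 in warm beige and 5.72, 5.52, 5.52, 5.52 and 5.33 in warm white libraries. Warm libraries lay above cold ones in both depots, by 0.80 ± 0.07 (adjusted p = 2.94e-09) and 0.38 ± 0.09 (adjusted p = 0.000658). Its gene model overlaps Gm6548, which also has a row, and reads of the pair may not be told apart. Zbp1, a sensor of Z-form nucleic acid, rose by 2.90 ± 0.48 in brown (adjusted p = 1.25e-05) and 1.67 ± 0.58 in beige adipocytes (adjusted p = 0.0134), with cold brown library 2 below the floor. Oasl2, of the oligoadenylate synthetase family, read -1.29, -2.83, -2.05, -1.50 and -0.89 in cold brown and 0.52, 0.60, 0.42, 1.00 and 0.86 in warm brown libraries. It read 1.48, 1.18, 1.24 and 1.72 in cold beige, 3.37, 3.77 and 4.18 in warm beige and 4.18, 4.46, 3.30, 4.53 and 3.45 in warm white libraries. Warm and cold libraries were apart in brown and in beige adipocytes, and Oasl2 rose by 2.39 ± 0.31 and 2.37 ± 0.37 (adjusted p = 4.14e-07 and 6.34e-06). Oas2, an oligoadenylate synthetase activated by double-stranded RNA, read -2.14, -6.06, -2.43, -3.63 and -3.54 in cold brown and -1.15, -1.29, -3.79, -1.26 and -2.14 in warm brown libraries. It read 0.67, 1.78, 2.08 and 1.47 in cold beige, 0.90, 2.65 and 3.66 in warm beige and 2.45, 1.65, 1.08, 3.28 and 0.59 in warm white libraries. Brown groups overlapped, and the brown difference of 1.63 ± 0.70 (adjusted p = 0.0415) was called in 11 of 24 reruns. It fell to 1.01 without cold brown library 2, whose value was at the floor (adjusted p = 0.163).

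Of 15 antiviral effectors with a row, 13 rose and 1 fell in brown adipocytes, and 13 rose and 1 fell in beige adipocytes. Ifit3 (chr19:34583119-34588982), an RNA-binding adaptor of the Ifit complex, read -1.16, -5.64, -2.19, -1.84 and -2.28 in cold brown and 1.05, 1.72, 1.87, 1.19 and 1.01 in warm brown libraries. It read 0.91, 0.01, 0.32 and 1.03 in cold beige, 3.13, 3.32 and 3.69 in warm beige and 4.20, 4.30, 3.75, 4.16 and 4.36 in warm white libraries. Every warm library lay above every cold library of its depot, and cold brown library 2 was below the floor. The rises were 3.99 ± 0.52 (15.9-fold, adjusted p = 4.78e-07) in brown and 2.81 ± 0.63 (7.03-fold, adjusted p = 0.000391) in beige adipocytes. Without cold brown library 2 the brown difference of Ifit3 was 3.24 and still called. Ifit1 (chr19:34640889-34650009), which binds RNA without a methylated cap, read -1.25, -1.87, -1.16, -2.30 and -0.04 in cold brown and 1.09, 1.12, 1.75, 1.48 and 0.77 in warm brown libraries. It read 0.46, -0.09, 0.04 and 0.82 in cold beige, 2.77, 2.51 and 2.50 in warm beige and 3.48, 3.50, 2.68, 3.97 and 3.42 in warm white libraries. Warm and cold libraries did not overlap in brown or in beige adipocytes, and Ifit1 rose by 2.57 ± 0.33 (adjusted p = 4.14e-07) and 2.29 ± 0.40 (adjusted p = 2.47e-05). Ifit3b, the copy of Ifit3, read -3.64, -3.70, -3.17, -2.58 and -2.98 in cold brown and -0.34, -0.43, -0.52, -0.88 and -0.89 in warm brown libraries. It read -0.70, -2.12, -0.71 and -0.96 in cold beige, 1.07, 1.48 and 2.25 in warm beige and 1.66, 2.40, 2.61, 3.02 and 2.46 in warm white libraries. It was highest in warm white and warm beige, as Ifit3 was, and rose by 2.60 ± 0.37 and 2.72 ± 0.44 (adjusted p = 1.39e-06 and 9.38e-06).

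Bst2 (chr8:71534255-71537472), the tetherin that holds budding virus at the cell surface, read 3.10, 2.68, 2.78, 2.38 and 3.17 in cold brown and 5.49, 5.22, 5.41, 5.32 and 5.26 in warm brown libraries. It read 4.01, 4.59, 3.91 and 4.17 in cold beige, 7.03, 6.74 and 6.53 in warm beige and 6.18, 6.12, 6.03, 5.86 and 6.10 in warm white libraries. No library of one group crossed into the range of another, and the order ran from cold brown through cold beige, warm brown and warm white to warm beige. The rises were 2.52 ± 0.14 (adjusted p = 4.31e-13) and 2.60 ± 0.17 (adjusted p = 4.09e-12). Rsad2 (chr12:26442743-26456452), viperin, which makes a chain-terminating nucleotide, read 2.96, 1.70, 2.07, 1.34 and 2.62 in cold brown and 3.53, 3.54, 4.21, 4.14 and 3.72 in warm brown libraries. It read 3.46, 2.82, 2.35 and 3.23 in cold beige, 4.28, 4.12 and 3.80 in warm beige and 2.97, 2.54, 2.43, 3.42 and 2.53 in warm white libraries. Warm white was low for this gene and overlapped with the cold groups. Rsad2 rose by 1.69 ± 0.27 (adjusted p = 7.84e-06) and 1.10 ± 0.33 (adjusted p = 0.00454). Its neighbour Cmpk2, a nucleotide kinase that supplies the viperin substrate, rose by 1.79 ± 0.17 and 1.37 ± 0.20 (adjusted p = 2.42e-09 and 2.3e-06).

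Xaf1 (chr11:72301461-72313733), a pro-apoptotic zinc finger protein, read -0.15, -2.45, -2.58, -1.36 and 0.23 in cold brown and 1.69, 2.22, 1.64, 2.05 and 1.52 in warm brown libraries. It read 0.98, 0.86, 1.75 and 1.36 in cold beige, 2.25, 2.87 and 2.64 in warm beige and 2.81, 3.03, 2.57, 2.85 and 2.02 in warm white libraries. Warm and cold libraries did not overlap in brown or in beige adipocytes, with rises of 3.09 ± 0.41 (adjusted p = 6.25e-07) and 1.35 ± 0.50 (adjusted p = 0.0185, and 0.0663 to 0.0816 without warm beige library 2 or with library weights). Rtp4 (chr16:23520219-23614222), a receptor transporter induced by interferon, read 0.11, -1.03, -0.58, -0.70 and 0.14 in cold brown and 1.67, 1.97, 1.98, 2.52 and 1.61 in warm brown libraries. It read 1.38, 0.89, 1.64 and 1.98 in cold beige, 3.07, 3.64 and 3.76 in warm beige and 4.33, 3.77, 3.79, 4.39 and 3.34 in warm white libraries. Warm and cold libraries were apart in both depots, by 2.36 ± 0.27 (adjusted p = 5.32e-08) and 2.02 ± 0.32 (adjusted p = 7.55e-06). Ifitm3 (chr7:141009590-141010744), a membrane protein that blocks viral entry, read 1.29, -0.36, -0.37, -0.09 and 1.73 in cold brown and 2.34, 2.99, 2.61, 2.92 and 2.56 in warm brown libraries. It read 1.31, 0.77, 1.13 and 2.92 in cold beige, 3.14, 2.53 and 2.58 in warm beige and 2.68, 2.05, 2.62, 3.24 and 1.53 in warm white libraries. Brown groups did not overlap and beige groups did, through cold beige library 4. The rise was 2.24 ± 0.42 in brown (adjusted p = 5.17e-05) and 1.22 ± 0.50 in beige adipocytes (adjusted p = 0.0342), and the beige call was lost without any 1 of 5 libraries (cold beige 1, 2 or 3, warm beige 1 or 3) and with library weights (adjusted p 0.0512 to 0.118).

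Mx1 (chr16:97447035-97462906), a dynamin-like GTPase against influenza-type viruses, read -5.92, -3.80, -5.65, -2.99 and -5.65 in cold brown and -0.60, -1.96, -1.77, -1.86 and -3.61 in warm brown libraries. It read -0.12, 1.28, 0.49 and 0.39 in cold beige, 0.50, 1.58 and 2.41 in warm beige and 1.31, 0.00, 0.53, 2.41 and -0.42 in warm white libraries. Of its cold brown libraries, 3 were below the floor, and warm brown library 5 lay within the cold brown range. The fitted brown difference was 2.84 ± 0.67 (adjusted p = 0.000692), which depends on those floor values and was lost with 1 or 5 CPM added (adjusted p 0.332 and 0.63). The beige difference of 0.99 ± 0.81 did not pass (adjusted p = 0.279). Its neighbour Mx2 rose by 1.45 ± 0.45 and 1.69 ± 0.54 (adjusted p = 0.00609 and 0.00775), with the brown call lost on adding 1 or 5 CPM and under quantile normalization.

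Isg20 and Ifitm2 were the effectors that went against the rest. Isg20, an exonuclease, read 2.56, 2.87, 2.51, 2.44 and 2.93 in cold brown and 1.81, 2.42, 1.90, 1.93 and 1.83 in warm brown libraries. It read 2.30, 1.87, 1.97 and 2.17 in cold beige, 3.02, 2.57 and 2.07 in warm beige and 3.38, 3.42, 3.60, 3.41 and 3.17 in warm white libraries. Warm brown lay below cold brown and warm white above every other group, both without overlap, and cold and warm beige overlapped. It fell in brown by 0.68 ± 0.17 (adjusted p = 0.00104) and rose in beige adipocytes by 0.48 ± 0.20 (adjusted p = 0.0408), a call lost in 7 of 20 reruns (adjusted p 0.0651 to 0.336). Without warm beige library 1 the beige difference was 0.24 and without warm beige library 3 it was 0.72. Ifitm2, the relative of Ifitm3 with the response element shown above, read 4.79, 4.73, 4.66, 4.56 and 4.90 in cold brown and 4.43, 4.91, 4.34, 4.53 and 4.38 in warm brown libraries. It read 3.67, 3.89, 4.27 and 4.67 in cold beige, 3.17, 3.12 and 3.15 in warm beige and 3.86, 3.66, 3.79, 4.44 and 3.67 in warm white libraries. Warm beige libraries were the lowest of all, the brown groups overlapped, and the differences were -0.21 ± 0.16 in brown (adjusted p = 0.252) and -0.98 ± 0.20 in beige adipocytes (adjusted p = 0.000125).

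**Figure D3:**
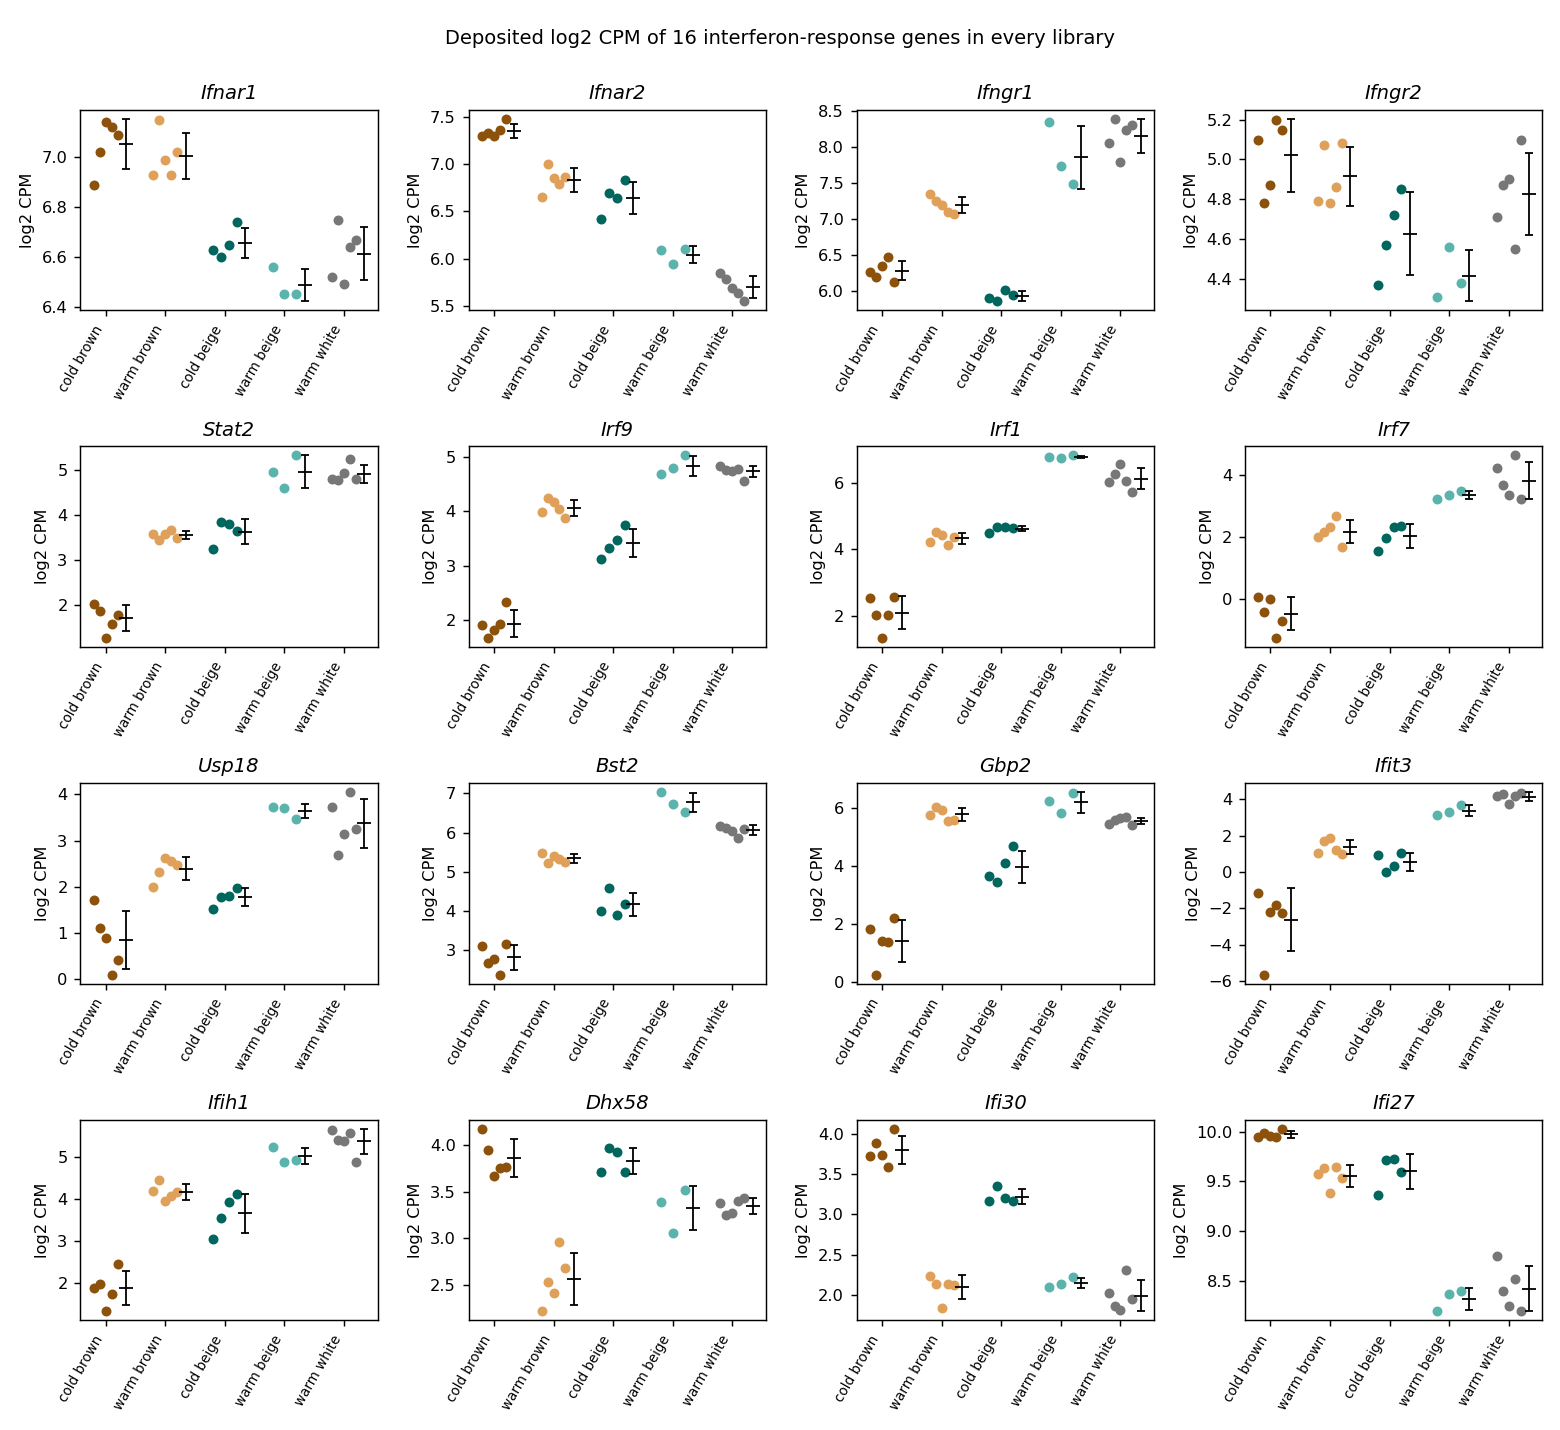
Log2 CPM of 16 members in every library (points), with the mean and SD of each group (bar to the right of the points); each panel has its own vertical scale. The receptors Ifnar1, Ifnar2 and Ifngr2 and the genes Dhx58, Ifi30 and Ifi27 have their highest mean in cold brown, and the genes with a called rise have their lowest mean there or, for Ifngr1, in cold beige.

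The guanylate binding proteins (GBPs) and immunity related GTPases, which attack the vacuoles and membranes of intracellular pathogens, held the largest rise in brown adipocytes. In beige adipocytes the largest rise was that of Ifit3. Of 13 rows, 11 rose and 0 fell in each depot. Gbp2 (chr3:142620663-142638008) read 1.83, 0.27, 1.42, 1.39 and 2.20 in cold brown and 5.77, 6.04, 5.92, 5.55 and 5.60 in warm brown libraries. It read 3.65, 3.46, 4.11 and 4.69 in cold beige, 6.25, 5.81 and 6.51 in warm beige and 5.44, 5.58, 5.64, 5.68 and 5.43 in warm white libraries. Cold brown libraries were far below every other group, and warm brown libraries reached the range of warm beige and warm white. The rises were 4.35 ± 0.26 (20.4-fold, adjusted p = 1.4e-12) in brown and 2.21 ± 0.31 (4.63-fold, adjusted p = 1.24e-06) in beige adipocytes. Gbp3 (chr3:142560016-142573213) read 2.94, 2.73, 2.71, 3.16 and 2.93 in cold brown and 5.39, 5.14, 5.57, 5.23 and 5.12 in warm brown libraries. It read 5.00, 5.32, 4.84 and 5.04 in cold beige, 6.14, 6.21 and 6.63 in warm beige and 6.11, 5.71, 5.69, 6.18 and 5.80 in warm white libraries. Cold beige libraries overlapped with warm brown ones, and Gbp3 rose by 2.40 ± 0.13 (adjusted p = 2.14e-13) and 1.28 ± 0.15 (adjusted p = 1.15e-07).

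Gbp2, Gbp3, Gbp5 and Gbp7 lie side by side on chromosome 3 between 142496934 and 142638008, and each of these 4 held a response element match. Gbp5 rose by 3.46 ± 0.33 and 2.38 ± 0.40 (adjusted p = 3.5e-09 and 1.33e-05), and its 3 warm beige values (3.98, 4.21 and 3.74) lay above all 5 in warm white (2.71, 2.47, 2.75, 3.18 and 2.10). Gbp5 read 0.53, -1.05, -0.61, -1.71 and 0.40 in cold brown and 2.64, 3.51, 3.01, 2.83 and 2.87 in warm brown libraries and 1.28, 1.28, 1.69 and 2.13 in cold beige libraries. Gbp7 read 2.00, 0.86, 1.54, 1.49 and 1.76 in cold brown and 5.26, 5.59, 5.60, 5.12 and 5.30 in warm brown libraries. It read 3.46, 3.36, 3.81 and 4.14 in cold beige, 5.71, 5.58 and 6.00 in warm beige and 5.65, 5.66, 5.74, 5.86 and 5.23 in warm white libraries. As for Gbp2, cold brown was lowest and the warm groups overlapped, and Gbp7 rose by 3.84 ± 0.18 and 2.07 ± 0.22 (adjusted p = 2.9e-14 and 1.46e-08). The other 5 GBP genes with a row, Gbp4, Gbp6, Gbp9, Gbp10 and Gbp11, lie on chromosome 5 between 105076464 and 105346476. Among them Gbp9 rose by 1.22 ± 0.23 in brown and 1.18 ± 0.27 in beige adipocytes (adjusted p = 4.81e-05 and 0.000565), and Gbp10 by 2.64 ± 0.46 and 1.50 ± 0.56 (adjusted p = 2.45e-05 and 0.0193). Without warm beige library 3 the beige difference of Gbp10 was 1.00 (adjusted p = 0.146). Gbp6 was called only in beige adipocytes and Gbp4 in neither. Gbp11 read -3.36, -5.55, -2.94, -6.02 and -1.42 in cold brown and 0.56, 1.29, 0.10, -0.24 and -1.72 in warm brown libraries. It read 1.39, 1.52, 2.92 and 2.89 in cold beige, 3.35, 3.91 and 3.80 in warm beige and 2.77, 2.26, 3.93, 2.53 and 2.92 in warm white libraries. Of its cold brown values 2 lay below the floor, and warm brown library 5 overlapped with cold brown. The fitted difference of 3.86 ± 0.67 (adjusted p = 2.46e-05) rests in part on the floor and was lost with 5 CPM added, and the beige difference of 1.51 ± 0.81 did not pass (adjusted p = 0.0999). The GBP copies resemble each other in sequence, so reads may be split among them.

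Irgm1 (chr11:48865245-48871420), a regulator of the immunity related GTPases, read 2.20, 2.08, 2.19, 2.32 and 2.17 in cold brown and 3.96, 4.39, 4.24, 4.01 and 3.98 in warm brown libraries. It read 2.89, 3.24, 3.51 and 3.79 in cold beige, 4.47, 4.34 and 4.54 in warm beige and 4.47, 4.18, 4.26, 4.23 and 3.92 in warm white libraries. The warm groups of both depots and warm white overlapped with each other and lay above both cold groups. Irgm1 rose by 1.92 ± 0.14 (adjusted p = 3.44e-11) and 1.09 ± 0.17 (adjusted p = 3.99e-06). Both rows of Irgm2 rose, one by 2.79 ± 0.22 and 2.41 ± 0.27 and the other by 2.44 ± 0.17 and 2.30 ± 0.21 in brown and beige adipocytes (adjusted p at most 3.64e-08 in all 4). Iigp1, an effector GTPase, read 1.90, 0.00, 1.04, 0.68 and 1.60 in cold brown and 4.29, 4.52, 4.56, 3.75 and 3.92 in warm brown libraries. It read 3.46, 4.41, 4.83 and 5.64 in cold beige, 5.63, 5.37 and 5.89 in warm beige and 5.21, 5.35, 4.97, 5.44 and 4.07 in warm white libraries. Brown groups did not overlap, and cold beige library 4 reached the warm beige range. Iigp1 rose by 3.16 ± 0.35 in brown (adjusted p = 4.1e-08) and by 1.04 ± 0.42 in beige adipocytes (adjusted p = 0.0313), and the beige call was lost without any 1 of 4 libraries (cold beige 1 or 2, warm beige 1 or 3), with library weights and with the library number as a block. Without cold beige library 1 the beige difference was 0.67 (adjusted p = 0.141).

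The ISG15 system attaches a ubiquitin-like protein to targets. Isg15, Usp18 and the ubiquitin ligases Trim21 and Trim25 were counted together as ISG15 and ubiquitin system genes. All 4 rose in brown and 3 in beige adipocytes. Isg15 (chr4:156199424-156200818), the modifier itself and the gene with 3 joined response element matches, read -0.88, -5.57, -1.62, -1.52 and -1.59 in cold brown and -0.44, 0.80, 0.46, 0.38 and -0.24 in warm brown libraries. It read -0.14, -0.59, -0.84 and 0.88 in cold beige, 0.99, 1.36 and 2.13 in warm beige and 2.52, 1.66, 1.49, 2.64 and 2.71 in warm white libraries. Cold brown library 2 was below the floor, and warm libraries lay above cold ones in both depots. The brown rise was 2.43 ± 0.62 (adjusted p = 0.00139, lost with 5 CPM added or under quantile normalization). Without cold brown library 2 the brown difference was 1.60 (adjusted p = 0.00103). In beige adipocytes the difference of 1.67 ± 0.75 missed the threshold (adjusted p = 0.0502). Usp18 (chr6:121245906-121270917), the protease that removes ISG15 and dampens the type I receptor, read 1.70, 1.11, 0.89, 0.09 and 0.41 in cold brown and 1.99, 2.31, 2.62, 2.55 and 2.47 in warm brown libraries. It read 1.51, 1.78, 1.80 and 1.98 in cold beige, 3.73, 3.71 and 3.46 in warm beige and 3.72, 2.69, 3.14, 4.05 and 3.26 in warm white libraries. Warm libraries were above cold ones without overlap, by 1.55 ± 0.26 (adjusted p = 1.24e-05) and 1.87 ± 0.31 (adjusted p = 1.24e-05). The ubiquitin ligases Trim21, an intracellular antibody receptor, and Trim25, which acts on RIG-I, rose by 1.85 ± 0.16 and 1.48 ± 0.09 in brown (adjusted p = 5.71e-10 and 1.96e-12) and by 1.68 ± 0.19 and 1.49 ± 0.11 in beige adipocytes (adjusted p = 4.98e-08 and 3.25e-11).

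Parp14, an ADP-ribosyltransferase, was the single member of its kind with a row and rose by 3.06 ± 0.24 and 2.00 ± 0.29 (adjusted p = 1.42e-10 and 1.85e-06). Of the 5 other interferon-inducible proteins, 3 rose and 2 fell in brown and 2 rose and 2 fell in beige adipocytes. Ifi30, the lysosomal thiol reductase GILT, read 3.72, 3.88, 3.74, 3.59 and 4.06 in cold brown and 2.24, 2.14, 1.84, 2.14 and 2.12 in warm brown libraries. It read 3.16, 3.35, 3.20 and 3.17 in cold beige, 2.10, 2.14 and 2.22 in warm beige and 2.02, 1.86, 1.82, 2.31 and 1.95 in warm white libraries. Cold groups lay above all warm groups of every depot, and Ifi30 showed the largest fall of any member in brown adipocytes. It fell by 1.70 ± 0.12 (adjusted p = 4.15e-11) and 1.07 ± 0.15 (adjusted p = 1.21e-06).

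Ifi27 (chr12:103434189-103440245), a small inner-membrane protein of mitochondria, read 9.95, 9.99, 9.96, 9.95 and 10.03 in cold brown and 9.57, 9.64, 9.38, 9.65 and 9.53 in warm brown libraries. It read 9.36, 9.72, 9.73 and 9.59 in cold beige, 8.19, 8.36 and 8.39 in warm beige and 8.75, 8.39, 8.24, 8.52 and 8.19 in warm white libraries. Its order was cold brown first and warm beige and warm white last, and it fell by 0.42 ± 0.09 (adjusted p = 0.0003, lost under quantile normalization) and 1.29 ± 0.11 (adjusted p = 6.04e-10). Ifi27l2a (chr12:103433873-103443680), of the same family, read 3.52, 4.65, 5.01, 3.88 and 4.76 in cold brown and 7.29, 6.86, 6.80, 6.69 and 6.61 in warm brown libraries. It read 5.55, 6.25, 6.20 and 5.81 in cold beige, 8.27, 8.99 and 8.93 in warm beige and 9.30, 9.36, 8.91, 8.77 and 8.98 in warm white libraries. It moved the opposite way without overlap, rising by 2.49 ± 0.23 (adjusted p = 1.96e-09) and 2.78 ± 0.27 (adjusted p = 5.97e-09). The gene models of Ifi27 and Ifi27l2a overlap and the use of strand in counting is not given in the sources used here, so the split of reads between this pair is uncertain. Of the 4 members matched by name alone, the corepressors Irf2bp1, Irf2bp2 and Irf2bpl rose in both depots and Isg20l2 was not called in either. Irf2bpl rose the most of these, by 1.54 ± 0.19 and 1.73 ± 0.23 (adjusted p = 2.8e-07 and 7.48e-07).

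The brown and beige warming comparisons share no library, and their differences are set side by side here. The labels name no animals, so both depots may have come from the same mice, and the comparisons may not be independent. The test of the difference between the depots treated all libraries as independent. Of 62 members, 43 rose in both and 4 fell in both (Dhx58, Ifi27, Ifi30 and Ifnar2). The share of all rows called the same way in both depots was not counted, so these joint counts have no background beside them. Gbp11, Ifi203, Irf8, Isg15, Mx1 and Oas2 passed as higher in brown and missed the threshold in beige adipocytes, and Gbp6 the reverse. The test of the difference between the depots was called for Irf8 among these 7 (adjusted p = 0.0272) and not for the other 6 (adjusted p 0.0718 to 0.611). The Ifi203 and Oas2 calls were lost in 14 and 13 of 24 reruns. Irf3 passed as lower in brown and Ifitm2 in beige adipocytes, Isg20 was called in opposite directions, and 5 genes were called in neither (Gbp4, Ifi204, Ifnar1, Ifngr2 and Isg20l2). Across the 62 rows the differences had a Pearson correlation of 0.814, with the same sign in 60, and across all 11603 rows 0.707 (8997 with the same sign), given as a description since genes are not independent replicates.

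**Figure D4:**
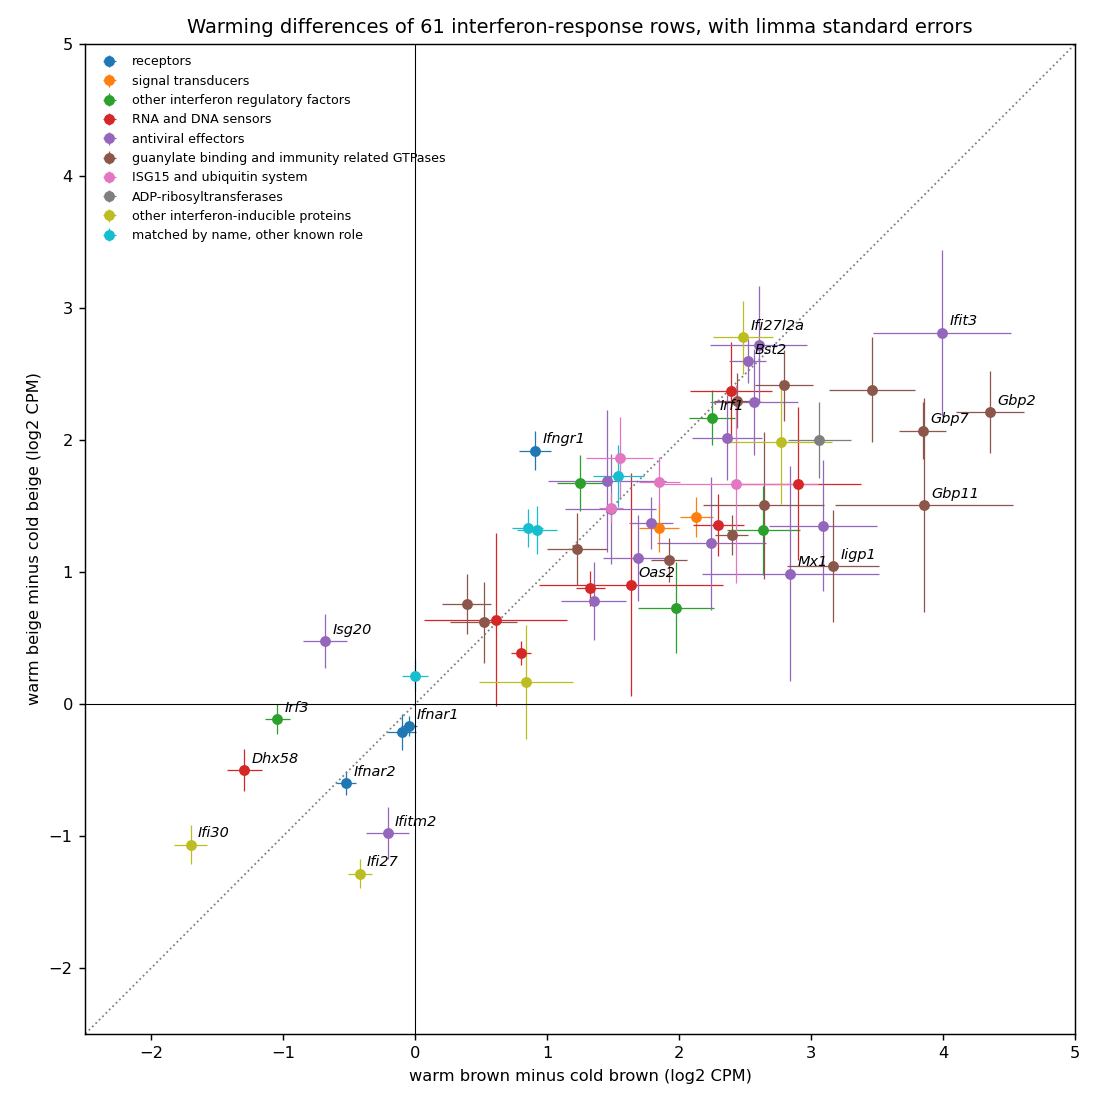
Warming difference in brown (horizontal) against beige adipocytes (vertical) for 61 of the 62 rows, in log2 CPM, with limma standard errors and colours by role; the dotted line marks equal differences. Most points lie in the upper right, many of the largest brown rises such as Gbp2, Gbp7 and Gbp11 lie below the line, and Ifi30, Dhx58, Ifi27 and Ifnar2 lie in the lower left.

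The difference between the depots in the size of the warming response was tested gene by gene as an interaction. It was called for 21 members, with 6 higher and 15 lower in beige than in brown adipocytes, against 14.8% higher and 32.4% lower among all rows, and the median was -0.36 against -0.17 over all rows. Among the called members, the largest negative values were in GTPases: -2.14 ± 0.40 for Gbp2 (adjusted p = 0.000138), -2.12 ± 0.55 for Iigp1 (adjusted p = 0.00302) and -1.77 ± 0.28 for Gbp7 (adjusted p = 1.98e-05). The fitted value of Gbp11 was lower still, at -2.35, and was not called. The largest positive values were 1.16 ± 0.27 for Isg20 (adjusted p = 0.00101), 1.01 ± 0.19 for Ifngr1 (adjusted p = 0.000153) and 0.93 ± 0.15 for Irf3 (adjusted p = 2.21e-05). Among the GTPases 5 of 13 rows were called lower and 0 higher, and among the ISG15 and ubiquitin system genes 0 of 4 were called. The direction of these counts depended on the scale: 15 were higher and 8 lower with 5 CPM added before taking logs, and 18 and 6 under quantile normalization. Of all calls among all rows, 31.3% were higher as deposited, 49.7% under quantile normalization and 46.0% with median-of-ratios scaling.

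Warm white adipocytes, from mice kept at 30 °C per the treatment protocol, were set against both warmed groups. The warm white group enters both comparisons, so their results are not independent. Warm brown libraries stayed below warm white ones for most members: 43 were lower and 8 higher, against 38.1% and 40.9% of all rows, with a median difference of -0.93 against 0.03. Without warm white library 5, 5 members were higher. The largest gaps were in Oas2, at -3.74 ± 0.70 (adjusted p = 4.47e-05), Oasl2, at -3.30 ± 0.31 (adjusted p = 1.49e-09), and Ifit3b, at -3.04 ± 0.37 (adjusted p = 9.19e-08). Oas2 and Ifit3b have a row through inguinal libraries alone, which partly sets these gaps. Higher in warm brown than in warm white were Ifi27 by 1.14 ± 0.09 (adjusted p = 1.2e-10), Ifnar2 by 1.13 ± 0.08 (adjusted p = 5.8e-12) and Rsad2 by 1.05 ± 0.27 (adjusted p = 0.00122). Some GTPases did not pass the test: Gbp2 was at 0.22 ± 0.26, Gbp7 at -0.25 ± 0.18 and Irgm1 at -0.10 ± 0.14 (adjusted p = 0.433, 0.197 and 0.531). Summed macrophage markers were at most 33.7 CPM in warm brown and at least 69.2 CPM in warm white, with 7 of 9 rows lower in warm brown. Fibroblast markers were lower for 8 of 11 rows and muscle markers for 4 of 5, and endothelial markers were higher for 7 of 10. The part of these cells in the members' differences was not tested.

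Fewer members were called between the warm beige and warm white groups. Of the members 12 were higher, 5 lower and 45 not called, against 17.0% higher and 22.4% lower among all rows, and the median difference was 0.07 against -0.04. The chromosome 5 genes Gbp9 and Gbp4 and the chromosome 3 gene Gbp5 stood highest above warm white, by 1.70 ± 0.26 (adjusted p = 2.23e-05), 1.66 ± 0.29 (adjusted p = 0.000113) and 1.33 ± 0.38 (adjusted p = 0.00768). Endothelial markers were higher in warm beige for 10 of 10 rows (median difference 3.37, summed 578 to 902 against 57.5 to 85.6 CPM), fibroblast markers were higher for 7 and lower for 2 of 11, and macrophage sums did not overlap (139 to 157 against 69.2 to 115 CPM, 1 of 9 rows called). Their part in the GBP values was not tested. Gbp9 read 1.64, 0.80, 0.67, 0.17 and 1.35 in cold brown and 2.14, 1.82, 2.17, 2.32 and 2.30 in warm brown libraries. It read 2.92, 2.76, 2.91 and 2.96 in cold beige, 3.65, 4.47 and 4.07 in warm beige and 2.43, 2.24, 2.19, 2.89 and 2.07 in warm white libraries. Its warm beige libraries lay above every other one. Gbp4 read 1.63, 0.84, 0.62, 0.63 and 1.34 in cold brown and 1.53, 1.33, 1.48, 1.53 and 1.79 in warm brown libraries. It read 2.78, 2.66, 2.66 and 2.76 in cold beige, 3.01, 2.90 and 4.09 in warm beige and 1.23, 1.22, 2.15, 2.30 and 1.47 in warm white libraries. Its warm beige libraries too lay above all others, and cold beige came next. Samd9l, an antiviral factor, read 0.63, 0.67, 0.62, 0.13 and 1.64 in cold brown and 1.94, 2.66, 2.05, 2.05 and 1.75 in warm brown libraries. It read 2.67, 2.51, 3.16 and 3.68 in cold beige, 4.22, 3.71 and 3.43 in warm beige and 4.65, 4.64, 4.70, 4.90 and 4.53 in warm white libraries. It was lower in warm beige than in warm white, without overlap, by 0.90 ± 0.28 (adjusted p = 0.0149), Isg20 by 0.84 ± 0.20 (adjusted p = 0.00156) and Ifitm2 by 0.74 ± 0.19 (adjusted p = 0.00339). For members that did not pass, the difference was -0.46 ± 0.32 for Irf7 and -0.77 ± 0.60 for Ifit3 (adjusted p = 0.268 and 0.323), and a missed threshold does not show that levels were equal. The Samd9l call was lost without warm beige library 2 or 3 (adjusted p 0.0513 to 0.0859), and without warm beige library 3 only 3 members were lower. With totals taken without the 20 most abundant genes, 61.0% of all calls were higher, against 43.1% as deposited.

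The depots already differed in the cold. Cold beige libraries were higher than cold brown ones for 47 members and lower for 8, against 34.7% and 27.2% of all rows, with a median difference of 1.66 against 0.05. The largest differences were fitted for Gbp11, at 6.04 ± 0.71 (adjusted p = 2.59e-07), Mx1, at 5.31 ± 0.71 (adjusted p = 1.48e-06), and Oas2, at 5.06 ± 0.74 (adjusted p = 4.72e-06), each with at least 1 cold brown library below the floor. Mx1 and Oas2 have a row through inguinal libraries alone, which partly sets their differences. All 4 receptor genes were lower in cold beige: Ifnar2 by 0.71 ± 0.08, Ifnar1 by 0.40 ± 0.07, Ifngr2 by 0.39 ± 0.12 and Ifngr1 by 0.35 ± 0.13 (adjusted p = 1.73e-07, 2.48e-05, 0.00682 and 0.0243). The Ifngr1 call was lost without cold brown library 4 or cold beige library 2, and the Ifngr2 call without cold brown libraries 1 and 5 together. Ifitm2 and Isg20 were lower too, by 0.60 ± 0.17 and 0.58 ± 0.18 (adjusted p = 0.00449 and 0.00745). Under quantile normalization 32 members were higher and 10 lower, and 46.0% of all calls were higher there and 45.8% with median-of-ratios scaling, against 56.0% as deposited. The members' median was 0.71 under quantile normalization, 1.02 with 1 CPM added before taking logs and 0.42 with 5 CPM added. Summed macrophage markers were at most 13.3 CPM in cold brown and at least 44.8 CPM in cold beige, and fibroblast markers at most 241 and at least 851 CPM, and whether they account for the difference was not tested. Without cold brown libraries 1 and 5, 46 members were higher and 7 lower here, and 50 rose and 6 fell in the brown warming comparison.

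**Figure D5:**
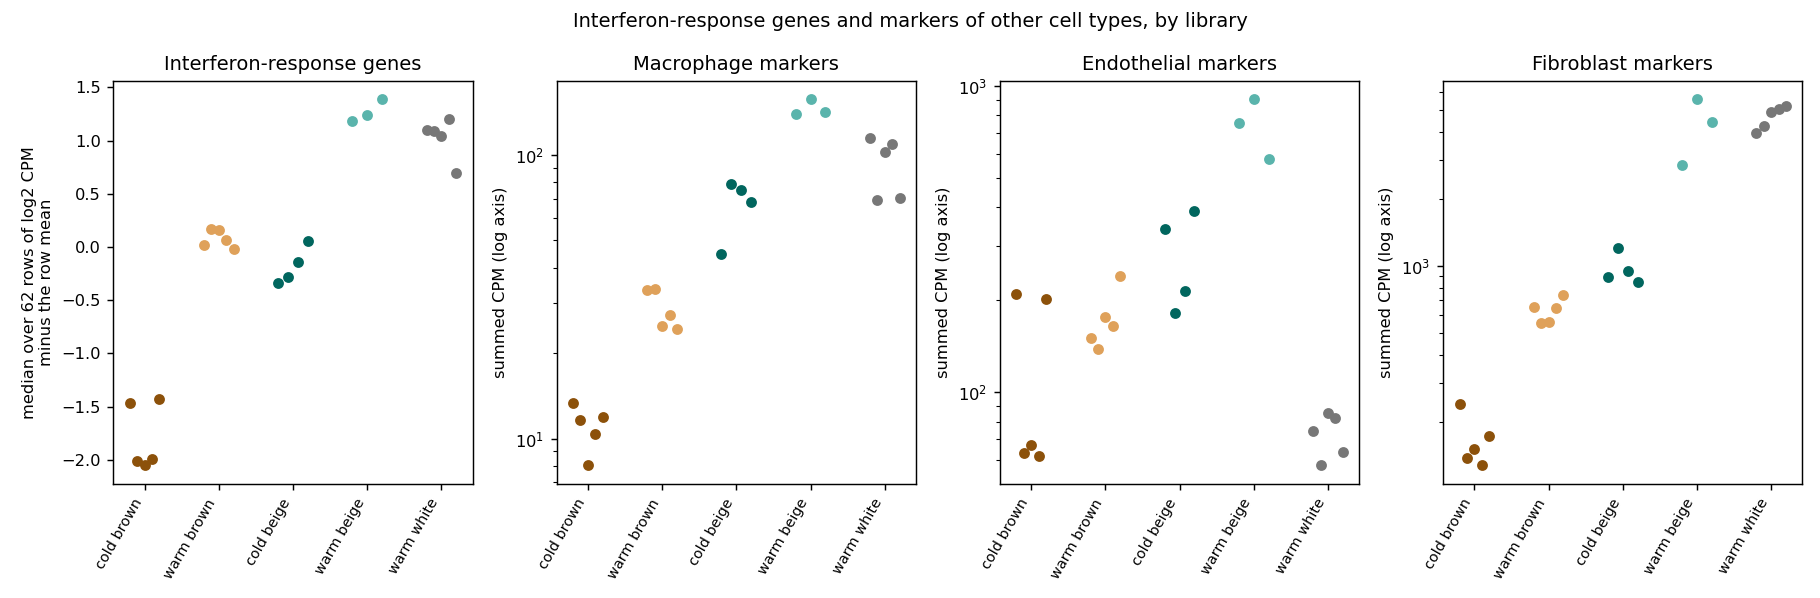
Each library's median over the 62 interferon-response rows (left, log2 CPM minus the row mean) and its summed CPM of macrophage, endothelial and fibroblast markers (log axes), by group. The interferon-response median is lowest in cold brown and highest in warm beige and warm white, and macrophage and fibroblast sums are also lowest in cold brown and the endothelial sum is 57.5 to 85.6 CPM in warm white.

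Other genes of the pathway, from lists that the rule did not use, were counted in the same fit. None of 9 interferon genes listed as ligands had a row (0 of 9), and a missing row does not show that a gene was silent. Of 10 kinases and negative regulators with a row, 5 rose and 3 fell in brown and 6 rose and 2 fell in beige adipocytes. Among all rows 41.2% rose and 30.1% fell in brown, so the brown counts were near that background, and 36.0% and 36.9% in beige adipocytes. Socs1, the feedback inhibitor of Janus kinases, had a mean of -4.14 ± 1.24 (SD, n = 5) in cold brown and -0.38 ± 1.03 (SD, n = 5) in warm brown, and -1.06 ± 0.85 (SD, n = 4) in cold and 2.96 ± 0.35 (SD, n = 3) in warm beige libraries. Its lowest cold brown value, -5.47, was below the floor. It rose by 3.76 ± 0.57 and 4.03 ± 0.68 (adjusted p = 3.6e-06 and 1.73e-05), and Socs3 by 2.75 ± 0.39 and 3.09 ± 0.47 (adjusted p = 1.4e-06 and 3.55e-06). Among the kinases, Tyk2 rose by 0.45 ± 0.08 and 1.01 ± 0.09 (adjusted p = 2.61e-05 and 2.44e-09), Jak2 by 0.54 ± 0.08 and 0.32 ± 0.10 (adjusted p = 2.72e-06 and 0.00511), and Jak1 was not called, at -0.08 ± 0.07 and -0.16 ± 0.08 (adjusted p = 0.289 and 0.0665).

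Upstream of interferon production, 7 of 14 nucleic acid sensing and signalling genes rose and 3 fell in brown, and 5 rose and 5 fell in beige adipocytes, which were near the shares of all rows. Mavs, the mitochondrial adaptor of RIG-I and MDA5, fell by 0.66 ± 0.06 and 1.65 ± 0.07 (adjusted p = 1.94e-09 and 7.32e-15). Tlr3, the endosomal receptor of double-stranded RNA, rose by 1.43 ± 0.16 and 0.89 ± 0.19 (adjusted p = 5.22e-08 and 0.000309), and Nlrc5, an activator of class I antigen genes, by 0.58 ± 0.18 and 0.85 ± 0.22 (adjusted p = 0.00682 and 0.00155). Of 31 further interferon-induced genes with a row, 22 rose and 4 fell in brown and 24 rose and 2 fell in beige adipocytes, with medians of 1.13 and 1.04. Among all rows 41.2% rose and 30.1% fell in brown and 36.0% and 36.9% in beige adipocytes, with medians of 0.13 and 0.03. Samhd1, which depletes nucleotides, rose by 2.43 ± 0.14 and 1.25 ± 0.16, the chemokine Cxcl10 by 2.63 ± 0.30 and 1.17 ± 0.36, and the RNA-editing enzyme Adar by 1.25 ± 0.11 and 1.36 ± 0.13 (adjusted p at most 0.00607 in all 6). The enzymes that join ISG15 to its targets rose as well: the activating enzyme Uba7 by 2.08 ± 0.25 and 1.25 ± 0.30, the conjugating enzyme Ube2l6 by 2.11 ± 0.17 and 2.16 ± 0.20, and the ligase Herc6 by 1.75 ± 0.19 and 1.97 ± 0.23 (adjusted p at most 0.000916 in all 6). Isg15 and Usp18 themselves were called higher beside these 3 enzymes in brown adipocytes, and Usp18 in beige ones.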

How the data were processed

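The 22 TRAP RNA libraries came from anti-GFP pulldown, ribosomal RNA depletion, Nextera XT preparation and HiSeq2500 sequencing, per the labels' protocols. Reads were handled with HISAT2, Picard, featureCounts and edgeR on mm10, per the submitters' processing notes, which give no versions, roles or strand setting. The authors deposited log2 CPM values for 11603 rows, so the depth of each library and its counting error are unknown. A fit of the deposited values found a batch effect already removed from them. The design had assumed that a log transform might be needed, and the values were used as deposited.

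Group means were fitted to all rows with limma-trend (limma 3.58.1, R 4.3.3), with no covariate and Benjamini-Hochberg adjustment over 11603 rows at 0.05. All 5 groups shared one estimate of spread. Alternatives covered added CPM, a filter of 5 CPM in 3 libraries, other scalings, weights, batches, replicate numbers and left-out libraries. Leaving out cold brown libraries 1 and 5 together was chosen after seeing the data. Replicate numbers were not taken to pair libraries, since in no comparison did every same-numbered pair correlate above 0.1.

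Members, gene lists and the genes given in full were chosen with earlier results of these data known. Values in every library are given for the receptors, signal transducers, main factors and effectors, where measured, and for the 3 members with the largest called difference each way per comparison. Irf3, Dhx58, Ifi30, Ifi27l2a, Gbp11, Oas2, Isg20, Ifitm2 and Iigp1 are among the latter. Oas1a and Igtp had no row in the deposited values. Results of 1 member, which stays in all counts and medians, are not reported here.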

Additional observations from a re-analysis of the deposited data

Results flagged for a closer look

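A single library stood far from the others of its group for 4 of the 172 gene-by-group sets examined (43 genes, groups of 4 or 5 libraries), and chance alone marks about 1 set in 20. Isg15 read -5.57 and Ifit3 read -5.64 in cold brown library 2, both under the floor. Ifitm2 read 4.44 in warm white library 4, the highest of its group, and Isg20 read 2.42 in warm brown library 2, again the highest of its group.

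The warming response differed in size between beige and brown adipocytes by limma's interaction test (Benjamini-Hochberg adjusted p under 0.05) for 19 of the same 43 genes. Parp14 (-1.06) and Irf2bp1 (0.48), outside these 43, were called as well, and the Irf2bp1 call was lost in 12 of 31 alternatives. Over all members 21 of 62 were called, and over all rows 14.8% were called higher and 32.4% lower. The response was smaller, or more negative, in beige adipocytes for the GTPases Gbp2 (-2.14), Iigp1 (-2.12), Gbp7 (-1.77), Gbp3 (-1.12) and Irgm1 (-0.83), in log2. The same held for Xaf1 (-1.74), Irf7 (-1.32), Irf8 (-1.25), Ifih1 (-0.94), Ifi27 (-0.86), Ifitm2 (-0.77), Irf9 (-0.71), Ddx58 (-0.45) and Eif2ak2 (-0.41). It was larger, or less negative, in beige adipocytes for Isg20 (1.16), Ifngr1 (1.01), Irf3 (0.93), Dhx58 (0.79) and Ifi30 (0.64). Of 31 alternatives, 15 lost the call for Ddx58 and 9 each lost it for Xaf1 and Irf8.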

How the results depend on the processing

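The main counts of members called higher and lower were 49 and 6 for brown warming, 45 and 5 for beige warming, 6 and 15 for the difference between them, 8 and 43 for warm brown against warm white, 12 and 5 for warm beige against warm white and 47 and 8 for cold beige against cold brown. With 1 CPM added before logs, the depot difference gave 10 higher and warm beige against white 8 lower. With 5 CPM added these were 15 higher and 8 lower, and 9 lower, and the depot differences of Irf7 and Irf8 became 0.004 and 0.129. Quantile normalization gave 18 and 6 for the depot difference, turned Ifi203 to -0.077 and Ifnar1 to 0.031 in brown warming, and in the cold comparison gave Ifi44 -0.993, Isg15 -0.624, Gbp10 -0.549, Usp18 -0.149, Ifitm3 -0.251, Ifit3b -1.303 and Ifit1 -0.603. Of these cold values, Ifi44 and Ifit3b were called lower (limma, adjusted p = 0.0443 and 0.0254), the reverse of their calls as deposited. A common total turned Ifnar1 to 0.104 and Ifngr2 to 0.048 in brown and Irf3 to 0.037 in beige warming. Totals without the 20 most abundant genes gave Ifnar1 0.079 and Ifngr2 0.023 in brown, Irf3 0.106, Ifnar1 0.053 and Ifngr2 0.011 in beige warming, 5 higher for warm brown and 3 lower for warm beige against white. Library weights gave 7 and 3 for warm beige against white. The cause was not tested.

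Within the first batch, Ifnar1 was 0.085 in brown warming, Irf3 0.085 and Isg20 -0.165 in beige warming, 3 members were lower in beige warming, 1 and 1 for the depot difference, 4 higher in warm brown and 3 and 2 in warm beige against white, and 1 lower in cold beige. Within the second, 5 were higher in warm brown against white, 5 and 2 in warm beige against white and 5 lower in cold beige. The batches held fewer libraries, 10 and 12. Leaving out 1 library at a time gave 47 to 50 higher and 6 lower for brown warming, 41 to 46 and 4 to 6 for beige warming, 5 to 7 and 12 to 17 for the depot difference, 5 to 8 (5 without warm white library 5) and 40 to 44 for warm brown against white, 8 to 13 and 3 to 7 (3 without warm beige library 3) for warm beige against white and 45 to 47 and 7 to 8 for the cold comparison. A replicate block gave 47 and 6 (replicate number) or 48 and 6 (library number) for brown warming, and 45 and 5 or 45 and 6 for beige warming, with no count moved beyond 1.5 times. In the cold comparison the block gave 47 and 8 or 46 and 8. Same-numbered libraries correlated in their deviations there (0.17, 0.19, 0.071 and 0.35 by library number), and in the other comparisons between -0.153 and 0.238. The unknown depth leaves the counting error of low genes such as Mx1, Oas2 and Gbp11 unmeasured.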
